A study of Homo sapiens with 60 samples.

Results

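The UGT1A enzymes are 8 genes of 1 locus on chromosome 2, UGT1A1, UGT1A3, UGT1A4, UGT1A6, UGT1A7, UGT1A8, UGT1A9 and UGT1A10. They were taken by symbol from a table of 60675 genes, and all 8 were among the 16484 genes that passed the filter on low counts. RNA was sequenced from HT29, a human colorectal adenocarcinoma line, after 24 h in culture with a hot-water extract or with the DMSO vehicle alone (0.1% per the sample labels). The 7 extracts were citrus peel (Citri Unshius Pericarpium), cimicifuga (Cimicifugae Rhizoma), bupleurum (Bupleuri Radix), aconite (Aconiti Lateralis Radix Preparata) and the mixed formulas Yijung-tang, Banhasasim-tang and Bojungikgi-tang. Each was given at 20 (low), 100 (medium) or 500 µg/mL (high), and vehicle and the first 6 extracts had 3 libraries per group, while Bojungikgi-tang had 1 per dose.

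UDP-glucuronosyltransferases join glucuronic acid to bilirubin, steroids, phenols, plant flavonoids and drugs, which makes them soluble enough to be exported. In the UGT1A locus each enzyme has its own promoter and first exon, which encodes the substrate-binding part, and all are spliced to 1 common set of later exons. The intestine is known for UGT1A8 and UGT1A10, which are nearly absent from liver, and UGT1A1 is the enzyme that clears bilirubin. The xenobiotic sensor AHR (aryl hydrocarbon receptor) and the oxidative stress factor NRF2 are known inducers of the locus.

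All sample titles carry the same batch letter, but library codes in the labels put the samples in sets. Vehicle had a code of its own, citrus peel and cimicifuga formed set 5, bupleurum and aconite set 6, Yijung-tang and Banhasasim-tang set 7, and Bojungikgi-tang set 8. Treatment and set therefore cannot be told apart in comparisons with vehicle, while comparisons between doses or extracts of 1 set are free of this. The labels do not say whether the 3 libraries of a group came from separate cultures, and the spread behind the p-values may therefore be technical. Total counts ran from 10.4 to 40.1 M. Of 10 colon epithelium markers all 10 were tested (summed level 10042 to 13578 CPM, the count scaled by library total). The keratins KRT8 and KRT18 made up most of that sum (medians 6199 and 3390 CPM). CDX1, CDX2 and CEACAM5 were low, with medians of 1.16, 5.46 and 6.19 CPM. Of 5 blood cell and 5 hepatocyte markers, 4 each were under 1 CPM in every library, PTPRC, CD3E and ALB among them, and LYZ and SERPINA1 made up the sums of 1307 to 2261 and 289 to 404 CPM. Fibroblast and endothelial markers summed to 1.54 to 3 and 1.01 to 2.67 CPM. The part of other cells in the results was not tested. Of the vehicle libraries, number 1 stood apart from numbers 2 and 3 (chi-square per degree of freedom over genes 13.8 and 15.8, against 3.78 between those), as did number 2 of aconite high (64.3 and 65.1 against 9.33), number 2 of Banhasasim-tang high (41.4 and 53 against 5.32) and number 2 of bupleurum medium (31.6 and 20.4 against 13). These 4 are called the libraries that stand apart. Others also differed from their fellows and are not among the 4. Examples are number 1 of aconite low (12.7 and 20 against 7.93) and number 3 of citrus peel medium (10.7 and 13.6 against 3.73).

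The shared exons set a limit on every value given here per gene. In GENCODE 29 on GRCh38, exons 2, 3, 4 and 5 had the same coding coordinates in all 8 members, with 132, 88, 220 and 295 coding bases. Exon 2 lies at chr2:233767034-233767165. The last 30 bases of each first exon (lower case) and the first 30 of exon 2 (capitals) are the junction of each member, shown because only first-exon bases can tell members apart, and near the junction these are shared between some members:
UGT1A8: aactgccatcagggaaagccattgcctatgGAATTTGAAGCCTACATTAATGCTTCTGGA
UGT1A10: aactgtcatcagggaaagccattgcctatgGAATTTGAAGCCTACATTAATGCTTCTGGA
UGT1A9: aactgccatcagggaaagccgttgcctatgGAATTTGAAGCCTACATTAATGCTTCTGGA
UGT1A7: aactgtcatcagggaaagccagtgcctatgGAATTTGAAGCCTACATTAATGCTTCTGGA
UGT1A6: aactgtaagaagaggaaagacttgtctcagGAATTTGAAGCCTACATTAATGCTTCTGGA
UGT1A4: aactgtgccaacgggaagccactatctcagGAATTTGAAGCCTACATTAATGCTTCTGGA
UGT1A3: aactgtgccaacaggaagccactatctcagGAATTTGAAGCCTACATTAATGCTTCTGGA
UGT1A1: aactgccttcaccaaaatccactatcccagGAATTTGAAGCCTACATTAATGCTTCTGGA
The exon 2 bases are the same in every line. The first-exon bases fall into likenesses that hold over the whole coding exon 1: UGT1A7, UGT1A8, UGT1A9 and UGT1A10 were 92 to 94% identical to one another, and UGT1A3 and UGT1A4 93.2%. UGT1A6 was 57.5 to 59.1% identical to the others and UGT1A1 56 to 63.6%.

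Of a member's 2333 to 2479 transcript bases, 1478 to 1489 lie in exons 2 to 5. Of all windows of 100 bases, the read length, only 35.9% (UGT1A8) to 41.8% (UGT1A6) occurred in no other member. These windows take reads singly, while the libraries were sequenced in pairs, and a mate in the first exon can also place a read. Pairs with no such window were divided between members by RSEM, the estimator behind the deposited counts. A count per member is thus an estimate that leans on its first-exon reads. The values were not whole in 59 or 60 of the 60 libraries for every member. The sum over the 8 members does not depend on that division among them, and is given beside them.

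UGT1A10 was the main UGT1A transcript of these cells. Its median was 357 CPM over 57 libraries (318 to 599), and it held a median of 68% of the summed UGT1A count (65.5 to 71.8%). UGT1A8 followed at 62.1 CPM, UGT1A6 at 51.4 and UGT1A1 at 46.2. Per kilobase of transcript in vehicle, UGT1A10 stood at 144 ± 4.26 (SD, n = 3) CPM per kb, UGT1A8 at 25.4 ± 0.64, UGT1A1 at 20 ± 2.1 and UGT1A6 at 18.3 ± 0.401. UGT1A1 and UGT1A6 did not differ beyond their spread there. The other 4 members were near the floor: UGT1A7 had a median of 2 CPM, UGT1A9 1.46, UGT1A4 1.26 and UGT1A3 0.878, with 2.59 to 94.9 counts per library, and their vehicle ranges overlapped from neighbour to neighbour. The part of reads divided from UGT1A10 in these low values was not tested. UGT1A5, a gene of the locus outside the set of 8, had a median of 0.166 CPM.

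**Figure D1:**
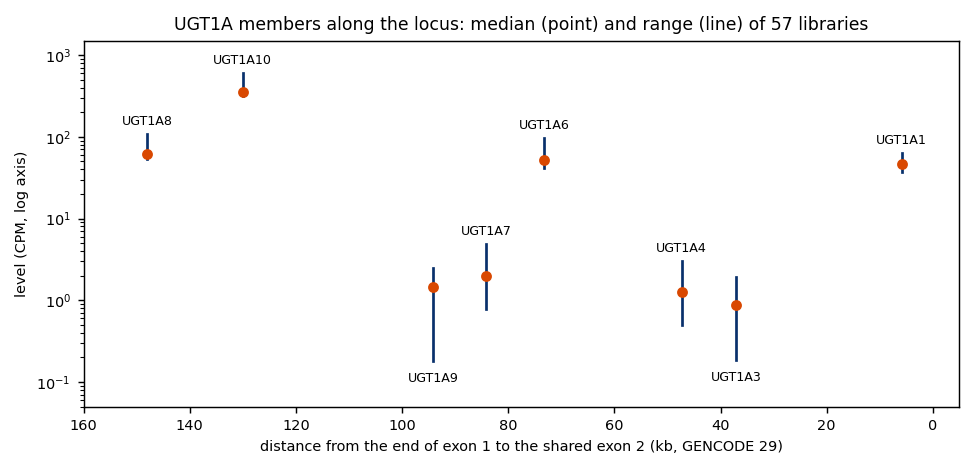
Level of each UGT1A member (median and range of 57 libraries, CPM on a log axis) against the distance in kb from the end of its first exon to the shared exon 2. The abundant members do not all lie together. UGT1A8 and UGT1A10 are next to each other among the members, 148 and 130 kb away. UGT1A6 at 73.2 kb and UGT1A1 at 5.88 kb are set apart from these and from each other by members at about 1 to 2 CPM.

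Promoter windows from RefSeq (GRCh38.p14), from 250 bases before to 50 after a start, were matched by symbol for 7 members, UGT1A6 with 2 starts. UGT1A10 had no entry. UGT1A6, the member called most often in the comparisons below, is shown for both starts with motif matches in capitals. The first stretch ends at the base before the annotated gene, and the second lies inside the gene, downstream of the first start, and ends at the base before the first exon of the transcript used here. The motifs searched on both strands were GCGTG (the core bound by AHR), TTGCGTG (a longer form that contains it) and TGACNNNGC (the core bound by NRF2):
UGT1A6, first start, chr2:233691452-233691606, plus strand: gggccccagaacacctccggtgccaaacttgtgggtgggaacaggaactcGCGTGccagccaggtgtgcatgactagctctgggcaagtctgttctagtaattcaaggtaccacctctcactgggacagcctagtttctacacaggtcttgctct
UGT1A6, second start, chr2:233692640-233692865, plus strand: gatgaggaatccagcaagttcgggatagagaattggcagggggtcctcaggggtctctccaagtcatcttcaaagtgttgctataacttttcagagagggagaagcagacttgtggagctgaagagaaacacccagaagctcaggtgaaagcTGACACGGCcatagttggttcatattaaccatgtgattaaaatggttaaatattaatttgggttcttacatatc
GCGTG was also found once each in the windows of UGT1A8, UGT1A9, UGT1A7 and UGT1A3, 2 times in that of UGT1A4, and at no place in that of UGT1A1. TGACNNNGC matched only the second start of UGT1A6, and TTGCGTG matched 0 of the 8 windows. Over all 35116 promoters, 36.5% held GCGTG, 13.3% TGACNNNGC and 1.16% TTGCGTG, so a match to the first is common. A match is a string of letters and not a bound site.

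In vehicle the summed UGT1A level was 524, 498 and 498 CPM. At the high dose it was 523, 526 and 509 with citrus peel, 611, 625 and 627 with cimicifuga, 592, 604 and 627 with bupleurum, 698, 860 and 677 with aconite, 601, 611 and 601 with Yijung-tang, and 585, 653 and 541 with Banhasasim-tang. All high-dose groups but citrus peel lay above the vehicle range. The ratio to vehicle was 1.23 for cimicifuga, 1.2 for bupleurum, 1.46 for aconite, 1.19 for Yijung-tang, 1.17 for Banhasasim-tang and 1.03 for citrus peel. At the medium dose aconite alone lay above vehicle throughout (645, 625 and 645 CPM, 1.26 times), and at the low dose all groups overlapped vehicle except citrus peel, which lay below it (475, 470 and 478 CPM). These sums have no test of their own.

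Tested gene by gene against vehicle, 2 to 4 members rose with 4 of the 6 extracts at the high dose, 1 with Banhasasim-tang and 0 with citrus peel. With aconite high, UGT1A1, UGT1A6, UGT1A8 and UGT1A10 were higher (4 of 8 members, where 15.9% of all genes were called in either direction and 8.58% were higher). With bupleurum high, UGT1A1, UGT1A6 and UGT1A10 were higher (3 of 8, against 1.52% of all genes called and 0.746% higher). With cimicifuga high, UGT1A6 and UGT1A10 were higher (2 of 8, against 1.33% and 0.813%), and with Yijung-tang high, UGT1A6 and UGT1A8 (2 of 8, against 1.14% and 0.667%). With Banhasasim-tang high, UGT1A10 was higher (1 of 8, against 1.21% and 0.807%). The median log2 fold change of the 8 members was 0.40 for aconite, 0.23 for bupleurum, 0.27 for cimicifuga, 0.13 for Yijung-tang, 0.03 for Banhasasim-tang and 0.05 for citrus peel, beside medians over all genes of -0.01 to 0.00. With citrus peel 0 members were called by edgeR or DESeq2 at any dose, with 2, 0 and 0 members at an unadjusted p under 0.05 at high, medium and low, and 0.0243%, 0% and 0.00607% of all genes were called.

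Below the high dose, calls were few. With aconite medium, UGT1A1, UGT1A6 and UGT1A10 were higher (3 of 8, against 4.67% of all genes called and 2.47% higher). In aconite low 1 of 8 was called, UGT1A7, which was lower (1.61% of all genes called, 0.91% lower). With cimicifuga, bupleurum, Yijung-tang and Banhasasim-tang at the medium dose 0 members were called by edgeR or DESeq2 (0.0303%, 0.406%, 1.64% and 3.11% of all genes), with 2, 2, 4 and 2 at an unadjusted p under 0.05. At the low dose of the same 4 extracts 0 were called by either tool (0%, 0.801%, 1.51% and 2.92% of all genes), with 0, 2, 1 and 2 at an unadjusted p under 0.05. All these comparisons share the vehicle libraries.

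**Figure D2:**
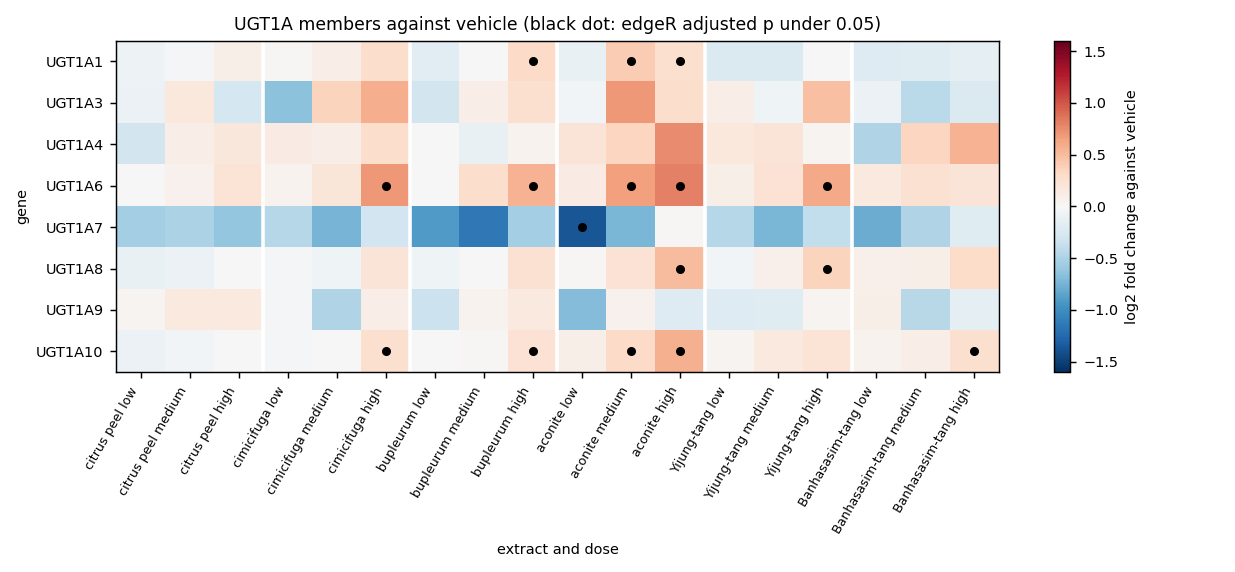
Log2 fold change of the 8 UGT1A members (rows) against vehicle for 6 extracts at 3 doses (columns); black dots mark edgeR adjusted p under 0.05. Dots for UGT1A6 and UGT1A10 gather at the high dose and at aconite medium, and UGT1A7 has its single dot at aconite low (-1.37).

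UGT1A6, which glucuronidates simple planar phenols, was called against vehicle with 4 extracts, as was UGT1A10, and with larger fold changes. Its level was 44.7, 46.4 and 44.7 CPM in vehicle. It was 73.3, 72.3 and 73.9 in cimicifuga high, 66.4, 63.9 and 68.2 in bupleurum high, 77.3, 96.6 and 65.6 in aconite high, and 67.8, 64.8 and 73.3 in Yijung-tang high. None of these libraries overlapped vehicle. Citrus peel high (54.5, 52.7 and 50.9) and Banhasasim-tang high (54.4, 52.9 and 49.7) also lay above vehicle, but did not pass over all genes. Log2 fold changes were 0.69 ± 0.09 (SE) for cimicifuga (edgeR adjusted p = 7.25e-07), 0.55 ± 0.09 for bupleurum (0.000138), 0.81 ± 0.09 for aconite (2.02e-09) and 0.60 ± 0.09 for Yijung-tang (0.000123), against 0.22 ± 0.09 for citrus peel (0.473) and 0.20 ± 0.09 for Banhasasim-tang (0.318). Aconite medium, at 76.3, 67.8 and 71.4 CPM, was as high as these (0.66 ± 0.09, adjusted p = 8.4e-07). No single library ended any of these 5 calls. The aconite high value was 0.64 without the 4 libraries that stand apart, and the 2 groups fitted alone gave an adjusted p of 0.0519. In libraries 1 and 2 of cimicifuga high, which shared the low level of the small RNA RN7SL2 with vehicle, the log2 ratio was 0.68.

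UGT1A10, an intestinal enzyme that acts on flavonoids, estrogens and other phenols, moved by less but from the largest pool. Vehicle libraries held 357, 337 and 343 CPM. Aconite high held 471, 599 and 470, aconite medium 426, 418 and 432, cimicifuga high 404, 415 and 422, bupleurum high 391, 406 and 419, and Banhasasim-tang high 404, 466 and 378. All lay above vehicle. The log2 fold changes were 0.57 ± 0.06 for aconite high (edgeR adjusted p = 1.29e-09), 0.30 ± 0.06 for aconite medium (0.0015), 0.26 ± 0.06 for cimicifuga (0.0159), 0.23 ± 0.06 for bupleurum (0.0425) and 0.26 ± 0.06 for Banhasasim-tang (0.0188). Yijung-tang high, at 398, 417 and 394 CPM, missed the threshold at 0.22 ± 0.06 (0.0578). The aconite calls held without any single library, and the high-dose one was 0.47 without the 4 libraries that stand apart and had an adjusted p of 0.0946 with the 2 groups alone. The others were fragile. The cimicifuga call ended without cimicifuga high 1, 2 or 3 or vehicle 2 or 3 (adjusted p up to 0.118), the bupleurum call without any 1 of bupleurum high 1, 2, 3 and vehicle 1, 2, 3 (up to 0.25), and the Banhasasim-tang call without its library 2 or vehicle 2 or 3 (up to 0.135). With the 2 groups alone these 3 gave 0.0654, 0.0636 and 0.999.

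UGT1A1, the bilirubin enzyme, was called against vehicle with the set 6 extracts. It was at 52.2, 48.7 and 42.3 CPM in vehicle, a wider spread than that of UGT1A6. Bupleurum high held 59.6, 58.5 and 58 CPM and aconite medium 64.2, 63.5 and 62.4, both clear of vehicle. In aconite high, libraries 1 and 3 held 64 and 61.3 CPM and library 2 held 45.6, inside the vehicle range, although that library was the highest of all for UGT1A6, UGT1A8 and UGT1A10. The log2 fold changes were 0.41 ± 0.08 for aconite medium (edgeR adjusted p = 0.000402), 0.30 ± 0.08 for bupleurum high (0.0306) and 0.26 ± 0.08 for aconite high (0.0149). Cimicifuga high (58.8, 58.6 and 55.6 CPM) lay above vehicle at 0.28 ± 0.08, no smaller than aconite high, and just missed the threshold (0.0552). It passed with DESeq2 and without the 4 libraries that stand apart, where 3 members were called in cimicifuga high in place of 2. Without the 4 libraries that stand apart the aconite high value was 0.45, over 1.5 times larger. The bupleurum call ended without bupleurum high 1, 2 or 3 or vehicle 2 or 3 (adjusted p up to 0.183), and the aconite high call without aconite high 1 or 3 or vehicle 3 (up to 0.148). With the 2 groups alone the values were 0.0745 and 0.577. It was not called with the formulas. Yijung-tang high held 50.1, 46.2 and 47.9 CPM (0.01 ± 0.08) and Banhasasim-tang high 47.5, 37.6 and 44.8 (-0.14 ± 0.08, adjusted p = 0.456).

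UGT1A8, the other intestinal member and the one most like UGT1A10 in its first exon, was at 62, 59.4 and 62.1 CPM in vehicle. It rose in aconite high (79.1, 109 and 74.2 CPM, 0.51 ± 0.09, edgeR adjusted p = 9.74e-05) and in Yijung-tang high (79.4, 76.5 and 79.6 CPM, 0.36 ± 0.09, 0.0414). The aconite libraries differed widely among themselves, and the Yijung-tang libraries hardly at all. The aconite value was 0.33 without the 4 libraries that stand apart, more than 1.5 times smaller, and the 2 groups alone gave an adjusted p of 0.218, while the Yijung-tang call ended without any 1 of Yijung-tang high 1, 2, 3 and vehicle 1, 2, 3 (adjusted p up to 0.174). Bupleurum high (69.7, 70.9 and 75.5 CPM) and cimicifuga high (68, 73.1 and 69.3 CPM) lay above vehicle without passing (0.24 ± 0.09 and 0.20 ± 0.09). So did Banhasasim-tang high (73.4, 88.5 and 63.9 CPM, 0.29 ± 0.09, edgeR adjusted p = 0.118) and aconite medium (71.9, 69.4 and 74.1 CPM, 0.23 ± 0.09). UGT1A8 stayed at 16.7 to 19.5 counts per 100 of UGT1A10 over the means of all groups with 3 libraries, with vehicle at 17.7 ± 0.387 and Yijung-tang high highest at 19.5 ± 1.01. The part of divided reads in this steady ratio was not tested.

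Among the 4 low members, 1 call was made against vehicle. UGT1A7, an enzyme of the upper gut that acts on carcinogen metabolites, was at 3.97, 2.87 and 2.15 CPM in vehicle (69.8, 92.1 and 47.4 counts) and at 1.78, 0.777 and 0.841 CPM in aconite low (50.3, 21.3 and 18.2 counts). Its log2 fold change was -1.37 ± 0.31 (edgeR adjusted p = 0.0116). The call ended without aconite low 2 or 3 or vehicle 1 (adjusted p up to 0.129), with the 2 groups alone (0.113) and with a term for RN7SL2 (0.116). The fold change of UGT1A7 was also negative in every other extract group tested but aconite high (0.02 ± 0.28). It was -1.14 ± 0.31 in bupleurum medium (edgeR adjusted p = 0.0716) and -0.91 ± 0.29 in bupleurum low (0.146). All Bojungikgi-tang libraries (1.73, 1.18 and 2.03 CPM) lay below vehicle too. Vehicle was thus high for UGT1A7 beside nearly all groups, and set and treatment cannot be told apart for it. UGT1A4, which glucuronidates amines, was at 2.07 ± 0.938 CPM in aconite high against 1.16 ± 0.0905 (0.75 ± 0.28, adjusted p = 0.0652). UGT1A3, which acts on bile acids, and UGT1A9, which acts on many phenolic drugs, passed in no comparison here, and at 0.584 to 1.4 and 0.913 to 1.67 CPM over the group means only large differences were detectable at this depth.

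**Figure D3:**
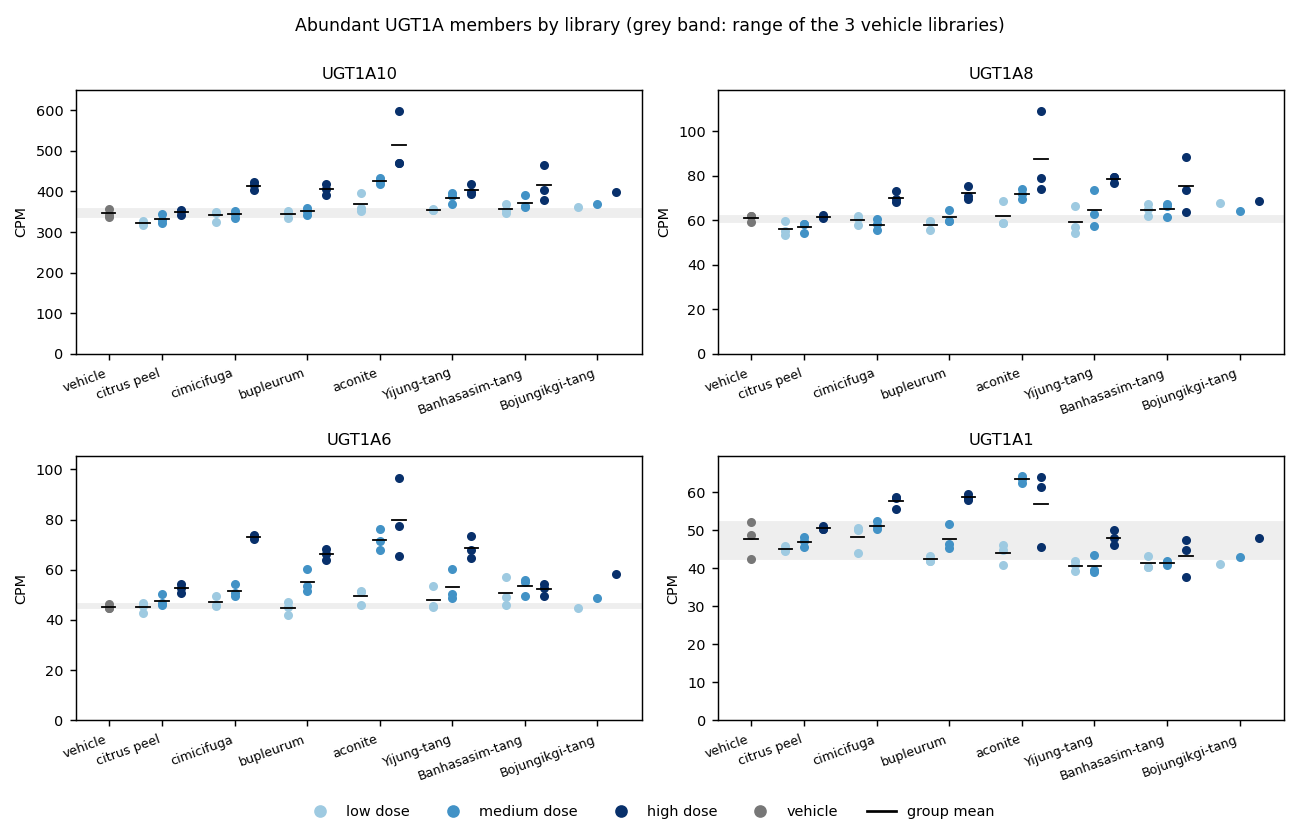
CPM of UGT1A10, UGT1A8, UGT1A6 and UGT1A1 in every library, by extract and dose, with group means (black lines) and the vehicle range (grey band). UGT1A6 lies above the vehicle band at the high dose of each extract shown, all UGT1A1 libraries lie above it with cimicifuga and bupleurum high and aconite medium, and library 2 of aconite high stands above its fellows for UGT1A10, UGT1A8 and UGT1A6 (599, 109 and 96.6 CPM) and below them for UGT1A1 (45.6 CPM).

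Against the low dose of the same extract, where library set is held constant, UGT1A6 rose with 4 of 6 extracts. It was higher by 0.63 ± 0.09 with cimicifuga (edgeR adjusted p = 6.67e-06), 0.56 ± 0.09 with bupleurum (0.000177), 0.68 ± 0.09 with aconite (1.69e-07) and 0.51 ± 0.09 with Yijung-tang (0.00413). High-dose libraries lay above low-dose ones in all 4, for example 67.8, 64.8 and 73.3 against 53.5, 45.7 and 45 CPM for Yijung-tang. That last call ended without Yijung-tang low 2 or 3 or high 3 (adjusted p up to 0.0928), and no single library ended the other 3. Citrus peel gave 0.22 ± 0.09 (adjusted p = 0.719) and Banhasasim-tang 0.05 ± 0.09 (0.799), with low-dose libraries at 49.1, 57.1 and 45.8 CPM for the latter.

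By extract, aconite had the most members called. UGT1A1, UGT1A6, UGT1A7, UGT1A8 and UGT1A10 were higher at its high dose (5 of 8, against 10.8% of all genes called and 5.81% higher). UGT1A10 rose by 0.47 ± 0.06 (edgeR adjusted p = 1.39e-07), UGT1A8 by 0.48 ± 0.09 (0.000267), UGT1A1 by 0.38 ± 0.08 (0.00053) and UGT1A7 by 1.39 ± 0.31 (0.00189). Without the 4 libraries that stand apart the same comparison gave 0.36, 0.31, 0.51 and 1.01, with 5 members called, and with the 2 groups alone 0 were called. Bupleurum raised UGT1A1 (43.2, 42 and 41.8 CPM at the low dose, 0.47 ± 0.08, adjusted p = 0.000291) beside UGT1A6 (2 of 8, against 0.297% and 0.176%). Cimicifuga raised UGT1A10 (348, 350 and 325 CPM at the low dose, 0.28 ± 0.06, 0.00913) beside UGT1A6 (2 of 8, against 0.904% and 0.419%), and the UGT1A10 call ended without cimicifuga high 2 or 3 or low 3 (adjusted p up to 0.15). Yijung-tang raised UGT1A6 alone (1 of 8, against 0.103% and 0.0849%). In citrus peel and Banhasasim-tang edgeR called 0 (0.0667% and 0.231% of all genes), with 2 and 3 members at an unadjusted p under 0.05 and 0 and 1 called by DESeq2. The fit without the 4 libraries that stand apart called 4 members each for cimicifuga, bupleurum and Yijung-tang.

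**Figure D4:**
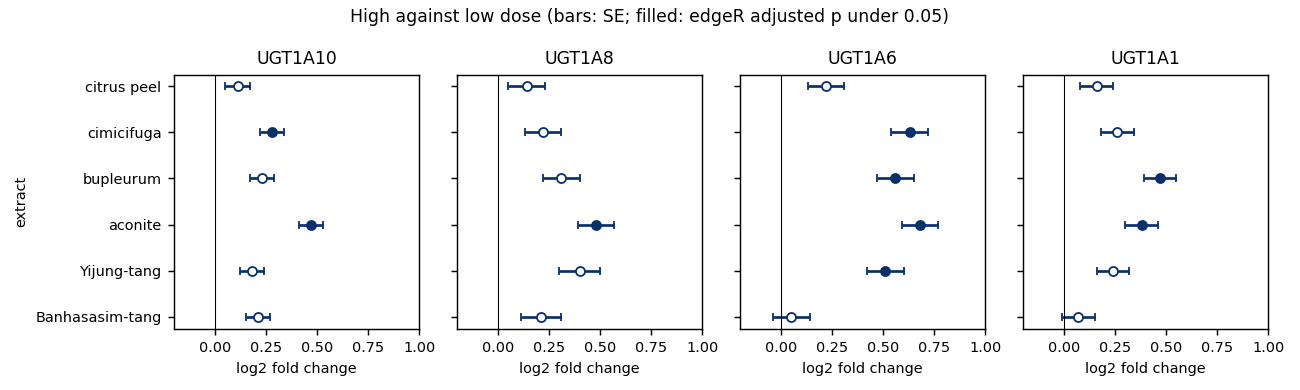
Log2 fold change ± SE of the 4 abundant UGT1A members for the high against the low dose of 6 extracts; filled points passed edgeR adjusted p under 0.05. UGT1A6 has 4 filled points (0.51 to 0.68), UGT1A1 and UGT1A10 have 2 each and UGT1A8 has 1, and every point lies to the right of 0.

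Extracts of the same library set were compared at the high dose. Cimicifuga exceeded citrus peel for UGT1A6 by 0.47 ± 0.09 (edgeR adjusted p = 0.000795) and for UGT1A10 by 0.25 ± 0.06 (0.0321), 2 of 8 members against 0.886% of all genes called and 0.637% higher. Their libraries did not overlap for either gene. The UGT1A10 call ended without any 1 of cimicifuga high 1, 2, 3 and citrus peel high 1, 2, 3 (adjusted p up to 0.259), and no single library ended that of UGT1A6. Aconite exceeded bupleurum for UGT1A10 by 0.34 ± 0.06 (adjusted p = 0.000111) and for UGT1A6 by 0.26 ± 0.09 (0.0479), 2 of 8 against 9.86% and 5.91%. For UGT1A6 the libraries overlapped, and its call ended without aconite high 2 (adjusted p = 0.649) or any 1 of bupleurum high 1, 2 and 3 (up to 0.145), with a log2 difference of 0.11 without the libraries that stand apart. For UGT1A10 it was 0.22 without them, and with the 2 groups alone neither call held (adjusted p = 0.627 and 0.395). Banhasasim-tang was below Yijung-tang for UGT1A6 by -0.40 ± 0.09 on the log2 scale (adjusted p = 0.0277), 1 of 8 against 0.346% called and 0.0667% lower, with no overlap. That call ended without Yijung-tang high 1 or 3 or Banhasasim-tang high 2 or 3 (up to 0.249) and with the 2 groups alone (0.878). UGT1A10 in the same pair differed by 0.04 ± 0.06 (adjusted p = 0.813).

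The makeup of the UGT1A pool shifted between groups. UGT1A6 stood at 13.1 ± 0.632 counts per 100 of UGT1A10 in vehicle, at 17.7 ± 0.389 in cimicifuga high, 17.1 ± 1.55 in Yijung-tang high, 16.9 ± 0.907 in aconite medium and 16.3 ± 0.614 in bupleurum high, all outside the vehicle range. Aconite high (15.5 ± 1.34), bupleurum medium (15.7 ± 1.4) and cimicifuga medium (15 ± 0.58) also lay above that range. So did citrus peel high and medium (15.1 ± 0.38 and 14.3 ± 0.346), where 0 members were called. Banhasasim-tang high was at 12.7 ± 1.15, inside or below the vehicle range. UGT1A1 stood at 105 ± 11.1 counts per 100 of UGT1A6 in vehicle and at 78.8 ± 3.2 in cimicifuga high and 70.2 ± 4.39 in Yijung-tang high. In set 7 the low and medium doses were also below vehicle on this ratio (85.1 ± 8.28 and 76.7 ± 4.31 for Yijung-tang, 82.2 ± 10.1 and 77.6 ± 4.14 for Banhasasim-tang). Against vehicle, set and treatment therefore cannot be told apart for it. Within a set, cimicifuga high (75.2 to 81.1) lay below its low dose (95.6 to 111), and Yijung-tang high (65.4 to 73.9) below its low dose (76.5 to 93). High and low doses overlapped on it in citrus peel, bupleurum, aconite and Banhasasim-tang. The ratios have no test of their own.

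**Figure D5:**
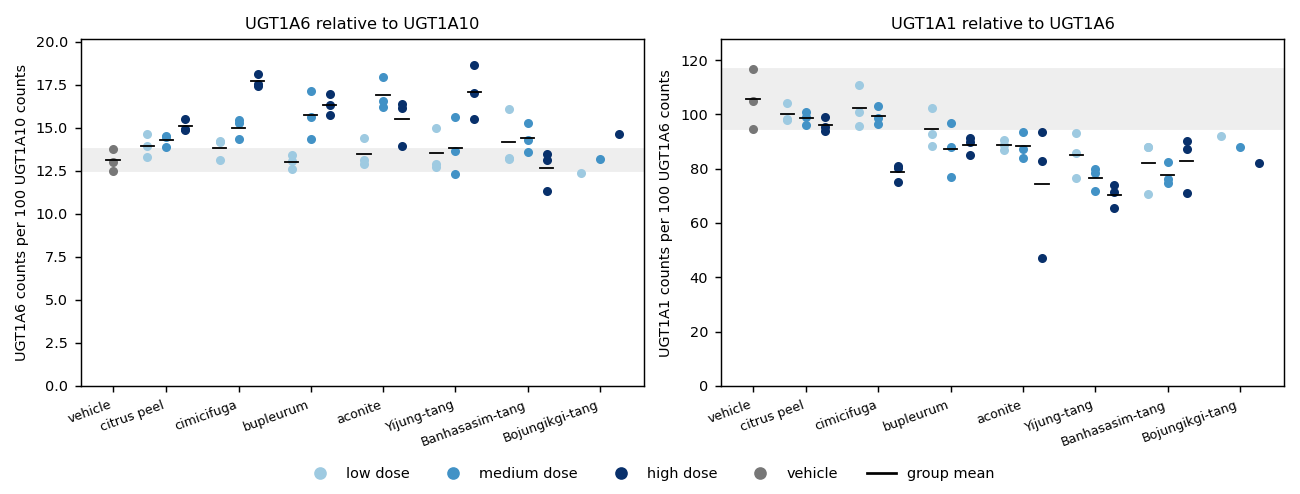
Counts of UGT1A6 per 100 of UGT1A10 (left) and of UGT1A1 per 100 of UGT1A6 (right) in every library, with group means and the vehicle range in grey. UGT1A6 gains on UGT1A10 most in cimicifuga high (17.7 against 13.1 in vehicle), and library 2 of aconite high is lowest on the right at 47.2.

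Other genes of glucuronidation were described for the high against the low dose. Of 13 UGT2, UGT3 and UGT8 enzymes only UGT8, UGT2A3, UGT2B7 and UGT2B15 passed the filter, with medians of 118, 1.02, 1.23 and 0.218 CPM. UGT8, which makes galactosylceramide for membranes, fell by 0.32 in aconite (SE 0.06, edgeR adjusted p = 6.78e-05), from 119 ± 0.56 to 95.6 ± 5.32 CPM. UGT2B15 was lower there too (-2.15 ± 0.61, 0.0159) at under 1 CPM in every group. In aconite 10.8% of all genes were called. In the other 5 extracts 0 of 4 were called by edgeR or DESeq2, with at most 1 at an unadjusted p under 0.05. At most 0.904% of all genes were called by edgeR in those, so 0 of 4 is near the background. The median of the 4 was -0.39 in aconite, but UGT2A3, UGT2B7 and UGT2B15 were near the floor.

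Of 8 genes that supply or use UDP-glucuronic acid, UGDH, which makes this cofactor from UDP-glucose, rose in cimicifuga from 84.6 ± 0.828 to 108 ± 6.52 CPM (0.35 ± 0.06, edgeR adjusted p = 0.000117) and in aconite by 0.19 ± 0.06 (0.0256). In aconite UXS1, which turns UDP-glucuronic acid into UDP-xylose, rose by 0.23 ± 0.07 (0.0181), and SLC35D1, which carries it into the endoplasmic reticulum where the enzymes sit, fell by 0.41 (SE 0.10, 0.00317). The count was thus 1 of 8 in cimicifuga, where 0.904% of all genes were called, and 3 of 8 in aconite, where 10.8% were, with medians of 0.01 and 0.14. With backgrounds this unequal the 2 counts are not comparable. In the other 4 extracts edgeR called 0 (0.0667% to 0.297% of all genes), DESeq2 at most 1, and at most 2 had an unadjusted p under 0.05.

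Of 8 carriers of glucuronides, ABCG2 and ABCC2, which pump conjugates out of the cell, rose in cimicifuga (0.23 ± 0.06 and 0.96 ± 0.24, edgeR adjusted p = 0.0209 and 0.0298). In cimicifuga 0.904% of all genes were called and 0.419% were higher. ABCC2 and ABCC3 also stand on the list of NRF2 targets below, so these lists are not separate. In aconite SLCO4A1 (0.38 ± 0.09), ABCC2 (0.99 ± 0.25), SLCO1B3 (0.44 ± 0.13) and ABCC3 (0.26 ± 0.08, adjusted p = 0.037) rose, 4 of 8 where 5.81% of all genes were higher. Of 19 other conjugation enzymes tested, 3 rose in aconite, the glutathione transferases MGST1 (0.43 ± 0.11) and GSTM4 (0.80 ± 0.24) and the sulfotransferase SULT2B1 (0.25 ± 0.08, adjusted p = 0.0352). With 10.8% of all genes called there, 3 of 19 is near the background and is no result about this list. In the remaining extracts edgeR called 0 of either list, with at most 4 genes of a list at an unadjusted p under 0.05 and at most 1 called by DESeq2. At most 0.904% of all genes were called by edgeR in those extracts.

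The lists of AHR and NRF2 targets were chosen with earlier results of the same libraries known, so their counts are not independent evidence of direction. The share of all genes called high against low dose was 0.904% in cimicifuga, 0.297% in bupleurum, 10.8% in aconite, 0.103% in Yijung-tang, 0.231% in Banhasasim-tang and 0.0667% in citrus peel. Of 7 AHR targets tested, 5 rose in cimicifuga, 5 in bupleurum, 6 in aconite, 1 in Yijung-tang, 1 in Banhasasim-tang and 0 in citrus peel (DESeq2 0, 1 at an unadjusted p under 0.05). CYP1A1, the AHR-driven cytochrome, went from 3.9 ± 1.93 to 102 ± 5.68 CPM in aconite (4.69 ± 0.17, edgeR adjusted p = 2.41e-25), from 0.512 ± 0.0956 to 3.86 ± 0.0998 in bupleurum and from 0.586 ± 0.182 to 2.4 ± 0.605 in cimicifuga. In Yijung-tang it stood at 1.13 ± 0.412 against 0.462 ± 0.0307 CPM (1.21 ± 0.47, adjusted p = 0.703). Group means of UGT1A6 at the high dose of these 4 extracts lay between 66.2 and 79.8 CPM, and those of CYP1A1 between 1.13 and 102 CPM. The part of AHR in the UGT1A6 levels was not tested. ALDH3A1, an aldehyde dehydrogenase, rose in 5 extracts, by 1.17 ± 0.08 in cimicifuga, 0.92 ± 0.08 in bupleurum, 1.47 ± 0.08 in aconite, 0.39 ± 0.09 in Yijung-tang and 0.58 ± 0.09 in Banhasasim-tang.

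Of 20 NRF2 targets, 17 rose in cimicifuga, 10 in bupleurum, 19 in aconite, 2 in Yijung-tang, 4 in Banhasasim-tang and 0 in citrus peel (DESeq2 0, 5 at an unadjusted p under 0.05), beside shares of all genes called of 0.904%, 0.297%, 10.8%, 0.103%, 0.231% and 0.0667% in that order. List medians were 0.53, 0.31, 0.64, 0.19, 0.23 and 0.11. HMOX1, which breaks down heme, rose by 1.09 ± 0.09 in cimicifuga, 0.49 ± 0.09 in bupleurum and 1.20 ± 0.09 in aconite. GCLC, which makes the glutathione precursor, rose by 0.53 ± 0.05, 0.37 ± 0.05 and 0.70 ± 0.05. AKR1C2, whose counts are less certain because AKR1C genes are near-identical, rose in Yijung-tang by 0.78 ± 0.13 and in Banhasasim-tang by 0.77 ± 0.14. NQO1, a quinone reductase, rose by 0.53 ± 0.09 in cimicifuga and 0.86 ± 0.09 in aconite, and was 0.32 ± 0.09 in bupleurum (edgeR adjusted p = 0.225).

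Among regulators of UGT1A transcription, HNF4A, a nuclear receptor of gut and liver, fell in aconite by 0.32 (SE 0.08, edgeR adjusted p = 0.0065), while NFE2L2, which encodes NRF2, rose there by 0.16 ± 0.05 (0.0342). In aconite 10.8% of all genes were called and 5.81% were higher, so single calls there are no result about this list. In the other 5 extracts 0 of 14 regulators tested were called by edgeR, with at most 3 at an unadjusted p under 0.05 and 1 by DESeq2, in cimicifuga. At most 0.904% of all genes were called in those extracts, so 0 of 14 is near the background. Neighbours of the locus were not called: 0 of 7 tested (INPP5D, ATG16L1, DGKD, USP40, DNAJB3, MROH2A and HJURP) in any of the 6 extracts by edgeR, with at most 2 at an unadjusted p under 0.05 and 1 by DESeq2, both in aconite. USP40 and HJURP stood at 0.13 ± 0.06 and 0.14 ± 0.05 there. With 10.8% of all genes called in aconite and at most 0.904% in the other 5 extracts, 0 of 7 is near the background. It is no result about the neighbours.

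By Pearson correlation of group means of log2 CPM over 19 groups, the summed UGT1A level was most like ME1 (0.97), NQO1 (0.96), GPAT3, GCLC and AKR1C3 (0.95 each) among 12172 genes. UGT1A10 was most like ME1 (0.97), HTATIP2, MGST1 and GPAT3 (0.95 each) and NQO1 (0.94). With set means taken out of the 18 extract groups, the sum was most like ALDH3A1, SRXN1 and AKR1B10 (0.98 each), then GCLC and NQO1 (0.97 each), and UGT1A10 was most like NQO1 (0.99), ME1 and GPAT3 (0.98 each), SRXN1 and EIF4A3 (0.97 each). ME1, a malic enzyme, NQO1, GCLC, SRXN1, AKR1C3 and AKR1B10 stand on the NRF2 list, ALDH3A1 on the AHR list and MGST1 among the other conjugation enzymes, while GPAT3, HTATIP2 and EIF4A3 stand on none. Among the members themselves UGT1A10 and UGT1A8 correlated at 0.95, UGT1A10 and UGT1A6 at 0.87, and UGT1A1 with UGT1A6 at 0.74 and with UGT1A10 at 0.50. The points share libraries and scaling, and members share divided reads.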

How the data were processed

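HT29 libraries were prepared from total RNA with a directional kit and sequenced as 100 bp pairs, per the labels' protocols. The submitters' processing notes name Trim Galore 0.6.5, FastQC 0.11.9, STAR 2.7.3a, RSEM 1.3.3 and GRCh38. Their annotation and run settings were not given in the sources used here. The authors deposited expected counts, the estimates that RSEM makes for each gene, without normalization. Of these, 8.68% were not whole, and all were rounded for tests. Of 270 columns, 60 matched the samples and 210 were not used. Symbols came from a gene name table (56558 identifiers matched) and GENCODE 29 (57055).

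CPM used TMM-scaled totals of all 60 libraries. Genes passing filterByExpr were fitted by edgeR 4.0.16 (R 4.3.3) quasi-likelihood on 57 libraries in 19 groups. The same fit was also run on simulated counts, which held no libraries that stand apart. The 27 comparisons were 18 against vehicle, 6 of high against low dose and 3 between extracts of a set, each with Benjamini-Hochberg adjustment over all 16484 genes. A gene is called at an adjusted p under 0.05. Alternatives were DESeq2 1.42.0, RLE scaling, no filter, the 2 groups alone, a replicate block, an RN7SL2 term, and fits without single libraries or the 4 that stand apart. All 8 members are described; from each list up to 4 genes with the smallest adjusted p in a comparison could be named, with CYP1A1, NQO1 and tested locus neighbours throughout. Genes most like a member were taken from tested genes with a mean log2 CPM of at least 1. Members, lists and alternatives were chosen with earlier results of these data known. Total counts per library (10.4 to 40.1 M, median 23.8 M) set the precision of the low members. The series' design text gives 2% DMSO where the sample labels give 0.1%. One result on the list of regulators is not reported here.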

Additional observations from a re-analysis of the deposited data

Results flagged for a closer look

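Differences between extracts of 1 library set at the high dose were tested directly. On the log2 scale UGT1A6 was higher with cimicifuga than with citrus peel by 0.47 and UGT1A10 by 0.25. With aconite, UGT1A6 was above its bupleurum level by 0.26 and UGT1A10 by 0.34. With Banhasasim-tang, UGT1A6 differed from Yijung-tang by -0.40. The libraries on which these calls depend are named with the comparisons above.

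Bojungikgi-tang had 1 library per dose and entered no test. At the high dose its library held 58.2 CPM of UGT1A6, 68.7 of UGT1A8 and 398 of UGT1A10, each above the highest vehicle library (46.4, 62.1 and 357 CPM). UGT1A1 was at 47.9 CPM, inside the vehicle range of 42.3 to 52.2. At the medium and low doses UGT1A6 was at 48.8 and 44.7 CPM, and the summed UGT1A level was 577, 529 and 521 CPM at high, medium and low. These values come from set 8, which holds no other extract, so set and treatment cannot be told apart.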

How the results depend on the processing

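No called member reversed in direction in any alternative. Some summed log2 ratios near 0 did change sign when libraries were left out. Banhasasim-tang against Yijung-tang at the high dose ran from -0.10 to 0.03 (-0.03 with all libraries). Cimicifuga low against vehicle ran from -0.03 to 0.02 (-0.01). Of the alternatives to the counts and summed ratios 709 stayed the same and 138 moved, and of those to single called members 382 stayed and 114 lost the call. The causes were not tested. Shares of all genes called in the alternative fits are not given below. A change in a count there therefore cannot be set against the change over all genes. The replicate numbers did not pair the samples in any comparison. With a replicate block, cimicifuga high against vehicle had 3 members called in place of 2, and no member count moved by over 1.5 times. Depth limits UGT1A3, UGT1A4, UGT1A7 and UGT1A9, where counts per library were 2.59 to 94.9.

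With only the 2 groups compared, members called against vehicle numbered 1 for cimicifuga high, 1 for bupleurum high, and 0 for aconite high, aconite low and Banhasasim-tang high. For high against low dose they numbered 4 for cimicifuga, 4 for bupleurum, 0 for aconite and 2 for Yijung-tang, and other pathway genes called numbered 12 for aconite (37 in the fit of all groups, of 83 tested), 9 for Yijung-tang (3) and 0 for Banhasasim-tang (5). Between extracts members called numbered 4 for cimicifuga against citrus peel and 0 for the other pairs.

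With no filter on low counts, members called were 2 in bupleurum medium and 1 each in bupleurum low, Yijung-tang medium and Banhasasim-tang low against vehicle. They were 2 for Yijung-tang and 1 for Banhasasim-tang high against low dose, and 1 for cimicifuga against citrus peel, with 6 and 15 other pathway genes in Yijung-tang and Banhasasim-tang.

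Without the 4 libraries that stand apart, members called were 1 in bupleurum medium and 1 in Yijung-tang medium against vehicle, 4 each for cimicifuga, bupleurum and Yijung-tang high against low dose, and 1 for aconite against bupleurum. Other pathway genes called were then 2 for citrus peel (0 with all libraries), 23 for bupleurum (15), 11 for Yijung-tang and 3 for Banhasasim-tang. High against low dose, DESeq2 called 2 members and 5 other pathway genes in Yijung-tang. In Banhasasim-tang it called 1 member and 10 other pathway genes. A term for RN7SL2 left 0 members in aconite low. With total counts and no scaling factor the log2 summed ratio to vehicle was 0.06 in Yijung-tang low (0.01 with TMM) and 0.09 in Banhasasim-tang low (0.04).

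Leaving out libraries, singly or by replicate number, gave these ranges of members called against vehicle: 1 to 3 for cimicifuga high, 0 to 2 for bupleurum high, 1 to 3 for aconite medium, 0 to 1 for aconite low, 0 to 2 for Yijung-tang high, 0 to 2 for Banhasasim-tang high, and 0 to 1 each for bupleurum medium and for Yijung-tang and Banhasasim-tang medium and low. High against low dose, the ranges were 1 to 2 for cimicifuga and 0 to 2 each for bupleurum, Yijung-tang and Banhasasim-tang. Other pathway genes ranged from 13 to 24, 5 to 14, 0 to 2 and 0 to 22 in the same order of extracts. Between extracts the members called ranged from 0 to 2 for cimicifuga against citrus peel, 1 to 4 for aconite against bupleurum and 0 to 1 for Banhasasim-tang against Yijung-tang.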
